A study of Mus musculus with 6 samples.

Results

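The genes described here are the simple keratins and surface proteins shared by the luminal cells of the mammary epithelium, namely Krt7, Krt8, Krt18, Krt19, Epcam, Spint1, Spint2, Prom1, Cd24a and Muc1. They were chosen by name, as 10 of the 34590 gene symbols in the count table, and all 10 were among the 17345 genes tested, so no member was lost to the filter on low counts. The choice did not use their values in these libraries, but it was made when earlier results of the same data were known.

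Keratins build the intermediate filaments of epithelial cells from pairs of a type I and a type II protein. Krt8 (type II) and Krt18 (type I) form the basic filament of simple epithelia such as the luminal layer of mammary ducts, to which Krt7 (type II) and Krt19 (type I) are added, whereas the outer myoepithelial layer uses Krt5 and Krt14. The surface genes cover several roles: Epcam encodes an adhesion molecule of epithelial cells, Spint1 and Spint2 encode membrane-bound inhibitors of serine proteases such as matriptase and hepsin, Prom1 encodes a protein of membrane protrusions used as a marker of hormone-sensing luminal cells, Cd24a encodes a lipid-anchored glycoprotein used to sort mammary epithelium, and Muc1 encodes the transmembrane mucin of the apical surface.

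RNA was profiled from 6 inguinal mammary glands (gland number 4) of 3 female WT host mice, whose fat pads had been cleared of their own epithelium. In each host the left gland carried a graft of WT.EGFP+ epithelium and the right gland a graft of Adamts18-/-.EGFP+ epithelium, which lacks the exons for the catalytic site of the secreted protease ADAMTS18. Both kinds of donor epithelium carried EGFP under a chicken β-actin promoter, which is not restricted to one cell type, in the C57BL/6JOlaHsd background, and the hosts kept their own stroma with an intact Adamts18 gene. The age of the hosts and the time since grafting for these 3 pairs are not given in the sources used here. All WT grafts were on the left and all Adamts18-/- grafts on the right, so genotype and body side cannot be told apart. The glands are named below by genotype and mouse, and values are counts scaled to a common library size (CPM), with TMM factors that correct for library composition.

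The comparison asked which transcripts differ between contralateral glands of one host when the graft lacks Adamts18. Adamts18 itself, counted over the whole gene and not over the deleted exons, was at 3.61, 9.92 and 6.80 CPM in WT glands of mice 1, 2 and 3 and at 2.75, 4.87 and 3.29 CPM in the contralateral Adamts18-/- glands. It was lower in the Adamts18-/- gland of each mouse and decreased by 0.83 on the log2 scale with a standard error of 0.19 (unadjusted p = 0.00922, edgeR's quasi-likelihood test). Total counts ranged from 53875123 to 71595924 per library. The labels call the RNA that of sorted GFP-positive epithelial cells, but genes of other cell types were abundant in each library: summed over 6 genes each, adipocyte markers led by Fabp4 took 3819 to 9479 CPM, fibroblast markers led by Col3a1 8015 to 10870 CPM, and macrophage markers led by Csf1r 1049 to 1700 CPM, against 1087 to 2082 CPM for all 10 luminal and surface genes together (plot of marker sums). The libraries thus held more than epithelial transcripts, and in such bulk samples fewer epithelial cells and less RNA per epithelial cell cannot be told apart.

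**Figure D1:**
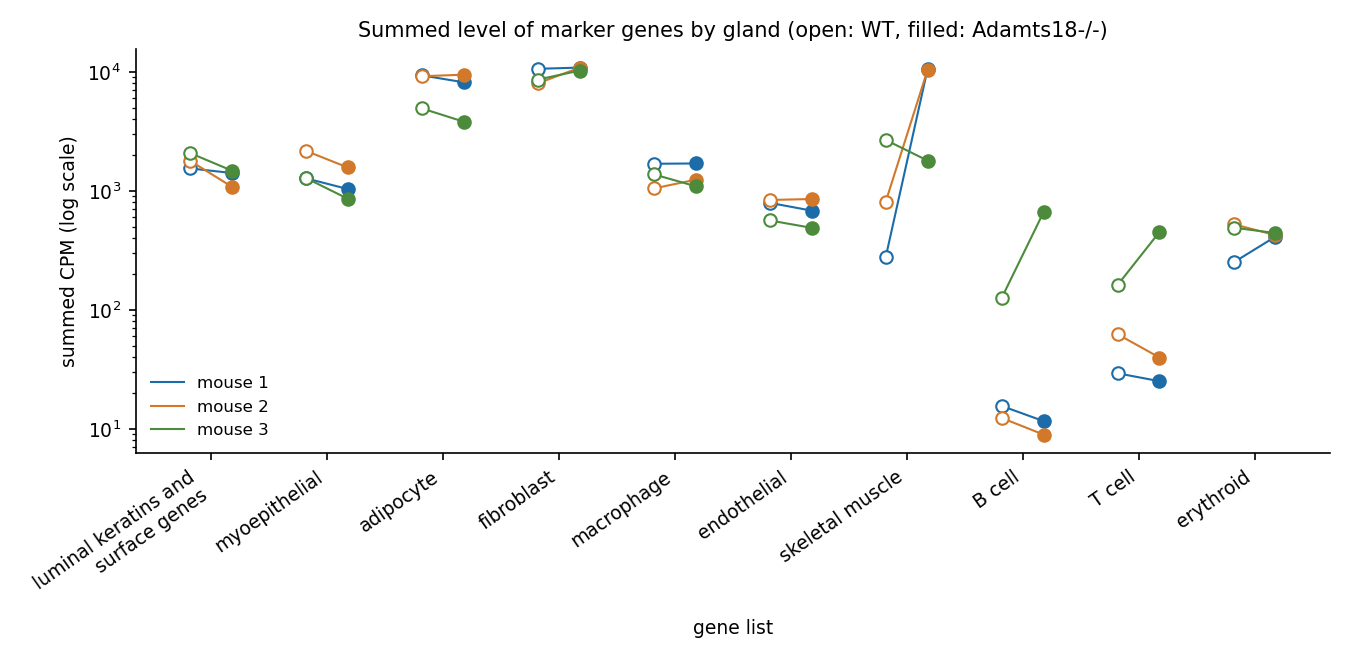
Summed CPM (log axis) of the luminal keratins and surface genes and of 9 marker lists for other cell types in each gland, with open points for WT, filled points for Adamts18-/- and lines joining the glands of one mouse. The luminal and surface genes lay lower in the Adamts18-/- gland of each mouse, while skeletal muscle markers reached 10511 and 10364 CPM in the Adamts18-/- glands of mice 1 and 2.

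The luminal keratins and surface genes were lower, as a group, in glands with Adamts18-/- epithelium. With the thresholds set at a fold change below 0.8, or above its inverse, and an unadjusted p below 0.05, 6 of the 10 genes fell (Krt7, Krt8, Krt18, Krt19, Spint1 and Prom1), against 1.84% of all genes tested, and 0 rose, against 1.17%. Epcam, Spint2, Cd24a and Muc1 did not pass. The median log2 fold change of the 10 genes was -0.44, against 0.00065 over all genes tested, and each of the 10 fitted values was below 0, although that of Cd24a turned to 0.24 with libraries scaled to other epithelial genes and to 0.16 without mouse 2. By p adjusted over all genes tested, 0 of the 10 had a value under 0.05 with edgeR (background 0%), where 6 had an unadjusted p under 0.05 and the adjusted p was 0.987 for each. DESeq2 gave 2 such genes, Krt19 (adjusted p = 6.24e-04) and Prom1 (adjusted p = 0.00177), against 71 of all 17345 genes tested. With limma-voom there were 0 among the 10 and 0 among all genes tested.

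The size of the difference varied between mice. The median over the 10 genes of the log2 difference, Adamts18-/- minus WT, was -0.12 in mouse 1, -0.75 in mouse 2 and -0.55 in mouse 3, and 6, 10 and 9 of the genes were lower in the Adamts18-/- gland. The same 6 genes that passed the thresholds were lower in all 3 mice, against 12.7% of all genes tested. In 3 of them, Krt18, Krt19 and Spint1, every WT gland lay above every Adamts18-/- gland, against 2.63% of all genes. Without mouse 1, 9 of the 10 genes passed the thresholds, Epcam (log2 fold change -0.71), Spint2 (-0.55) and Muc1 (-0.83) among them, beside 481 lower genes of 17596 tested. Without mouse 2 only Krt19 and Prom1 passed, beside 214 lower genes of 17507 tested.

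**Figure D2:**
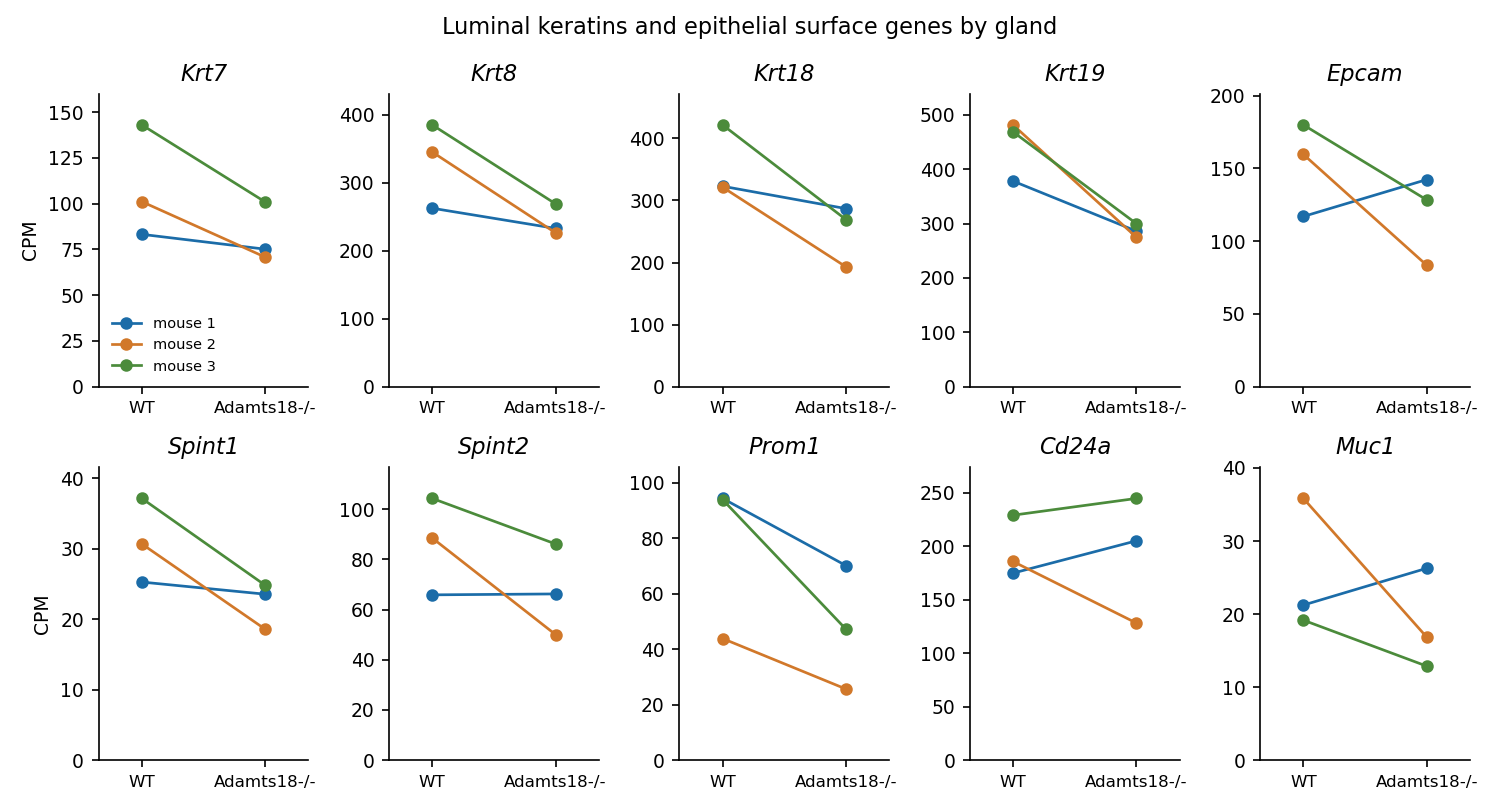
CPM of each of the 10 genes (linear axes from 0) in the WT and the Adamts18-/- gland of mice 1, 2 and 3, with lines joining the glands of one mouse. The lines of Krt7, Krt8, Krt18, Krt19, Spint1 and Prom1 slope down in all 3 mice, and those of Epcam, Spint2, Cd24a and Muc1 slope up in mouse 1.

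Krt8 and Krt18, the obligate filament partners of simple epithelia, lie next to each other in the genome, with their annotated starts 23874 bases apart on chromosome 15 and on opposite strands. Their promoters are shown with those of Prom1, the gene with the lowest fitted value, and Epcam, which did not pass, because genes of both kinds share the same short motif. Each sequence is the 250 bases before the annotated start, 5′ to 3′ on the strand of the gene, from RefSeq for GRCm38.p6. Capitals mark matches on either strand to CACCTG (the E-box bound by Snail and Zeb repressors of epithelial genes), AACCNGTT (the site of Grainyhead-like activators) or GGGCGG (the GC box). The windows are chr15:102004343-102004592 on the minus strand for Krt8, chr15:102027966-102028215 on the plus strand for Krt18, chr5:44101737-44101986 on the minus strand for the upstream start of Prom1, and chr17:87635729-87635978 on the plus strand for Epcam.
Krt8: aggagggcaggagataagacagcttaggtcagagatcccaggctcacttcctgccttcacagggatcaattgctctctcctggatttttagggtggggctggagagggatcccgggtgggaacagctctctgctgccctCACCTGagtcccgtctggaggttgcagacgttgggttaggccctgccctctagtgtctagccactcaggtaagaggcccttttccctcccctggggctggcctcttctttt
Krt18: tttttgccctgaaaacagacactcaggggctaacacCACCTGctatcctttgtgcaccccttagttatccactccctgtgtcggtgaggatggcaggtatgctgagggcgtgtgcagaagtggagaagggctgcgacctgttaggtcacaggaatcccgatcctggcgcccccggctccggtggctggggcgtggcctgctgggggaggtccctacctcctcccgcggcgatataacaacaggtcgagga
Prom1: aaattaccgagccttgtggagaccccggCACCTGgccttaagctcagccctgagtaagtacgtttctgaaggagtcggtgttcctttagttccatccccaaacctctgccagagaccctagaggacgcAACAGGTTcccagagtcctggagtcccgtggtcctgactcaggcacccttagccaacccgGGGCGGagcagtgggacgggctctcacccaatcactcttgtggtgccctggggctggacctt
Epcam: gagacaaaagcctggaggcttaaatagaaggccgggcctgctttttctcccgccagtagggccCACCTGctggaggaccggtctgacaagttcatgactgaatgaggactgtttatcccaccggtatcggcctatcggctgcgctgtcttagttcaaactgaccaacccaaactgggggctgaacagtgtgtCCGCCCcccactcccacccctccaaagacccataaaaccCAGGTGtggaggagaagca
The E-box letters occurred in all 4 of these windows, once each in Krt8, Krt18 and Prom1 and on both strands in Epcam. RefSeq entries matched 8 of the 10 genes, with 9 promoters since Prom1 has a pair of starts, and Krt19 and Cd24a had no entry. CACCTG or its reverse complement was found in 7 of the 9 windows, against 17.2% of 32851 promoter windows of the same length, AACCNGTT in 3 (both of Prom1 and that of Muc1), against 1.79%, and GGGCGG in 6, against 32.7%. No match to one motif overlapped a match to another in these windows. E-box letters occurred among the genes that fell and among those that did not pass. They were absent from the windows of Spint1, which fell, and of the downstream start of Prom1. The match is a description of the sequence and not of binding.

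Krt8 was at 262, 345 and 385 CPM in WT glands of mice 1, 2 and 3 and at 233, 226 and 269 CPM in the contralateral Adamts18-/- glands. Krt18 was at 323, 321 and 422 CPM in the WT glands and at 287, 193 and 269 CPM in the Adamts18-/- glands. Both partners were lowest in the Adamts18-/- gland of mouse 2, and the groups overlapped for Krt8, because the Adamts18-/- gland of mouse 3 exceeded the WT gland of mouse 1, but not for Krt18. Krt8 averaged 331 ± 62.5 CPM with WT epithelium and 243 ± 23.0 CPM with Adamts18-/- epithelium (SD, n = 3 each), and its log2 fold change was -0.43 with a standard error of 0.12. Krt18 averaged 355 ± 57.5 CPM and 250 ± 49.9 CPM (SD, n = 3 each), and its log2 fold change was -0.52 with a standard error of 0.14. Their unadjusted p-values were 0.0162 and 0.0161 (edgeR's quasi-likelihood test), and without mouse 2 both missed the threshold (unadjusted p = 0.0675 and 0.0703). The partners kept a close ratio: Krt8 counts over Krt18 counts were 0.813, 1.07 and 0.913 in WT glands and 0.811, 1.17 and 0.999 in Adamts18-/- glands of the same mice, so the ratio differed more between mice than between the glands of one mouse. Krt8 has a processed pseudogene, Krt8-ps, with 98.6% identity over 941 bases, and the part of its reads in the Krt8 count could not be separated here.

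Krt19, the smallest type I keratin and the most abundant of the 10 transcripts, was lower in each mouse. It was at 378, 482 and 469 CPM in the WT glands and at 286, 275 and 300 CPM in the Adamts18-/- glands of mice 1, 2 and 3. The 3 Adamts18-/- glands lay within a narrow band below all WT glands, at 443 ± 56.4 CPM with WT epithelium and 287 ± 12.6 CPM with Adamts18-/- epithelium (SD, n = 3 each). Krt19 fell by 0.62 on the log2 scale (standard error 0.11, unadjusted p = 0.00363, edgeR's quasi-likelihood test), to 65.1% of the WT level, and by 0.40, 0.81 and 0.64 in mice 1, 2 and 3. It passed under each alternative that kept the scaling to all genes, and its unadjusted p was 0.482 when libraries were scaled to other epithelial genes.

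Krt7, a type II keratin of glandular and ductal epithelia, was at 83.3, 101 and 143 CPM in the WT glands and at 75.1, 70.8 and 101 CPM in the Adamts18-/- glands of mice 1, 2 and 3. Mouse 3 was the highest in both genotypes and the groups overlapped, at 109 ± 30.7 CPM with WT epithelium and 82.3 ± 16.3 CPM with Adamts18-/- epithelium (SD, n = 3 each). Within mice Krt7 fell by 0.39 on the log2 scale (standard error 0.10, unadjusted p = 0.0129, edgeR's quasi-likelihood test), to 76.4% of the WT level. This call rests on comparing the glands of one host: without the mouse as a block the log2 fold change was -0.41 and the unadjusted p 0.139. Without mouse 2 it was -0.33 (unadjusted p = 0.0677).

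Prom1 had the largest fold change among the 10 genes. It was at 94.3, 43.8 and 93.9 CPM in the WT glands and at 70.1, 25.6 and 47.2 CPM in the Adamts18-/- glands of mice 1, 2 and 3. Mouse 2 was the lowest in both genotypes, so the groups overlapped although the Adamts18-/- gland was lower in each mouse, at 77.3 ± 29.0 CPM with WT epithelium and 47.6 ± 22.2 CPM with Adamts18-/- epithelium (SD, n = 3 each). Prom1 fell by 0.73 on the log2 scale (standard error 0.13, unadjusted p = 0.00261, edgeR's quasi-likelihood test), to 60.2% of the WT level, and by 0.43, 0.77 and 0.99 in mice 1, 2 and 3. Without the mouse as a block the log2 fold change was -0.70 and the unadjusted p 0.171. An antisense gene, Gm16401, overlaps 385 bases of its exons, and the strand used in counting is not given in the sources used here. Gm16401 had at most 7 counts in a library, against at least 1553 for Prom1.

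Of the protease inhibitors, Spint1 passed the thresholds and Spint2 did not. Spint1 was at 25.3, 30.7 and 37.1 CPM in the WT glands and at 23.5, 18.6 and 24.8 CPM in the Adamts18-/- glands of mice 1, 2 and 3. All Adamts18-/- glands were below all WT glands, with a gap of under 1 CPM between the highest of the former and the lowest of the latter. Spint1 fell by 0.47 on the log2 scale (standard error 0.14, unadjusted p = 0.0240, edgeR's quasi-likelihood test), from 31.0 ± 5.94 to 22.3 ± 3.30 CPM (SD, n = 3 each). It missed the threshold without mouse 2 (unadjusted p = 0.112) and without mouse 3 (unadjusted p = 0.0546). Spint2 was at 65.9, 88.6 and 104 CPM in the WT glands and at 66.3, 50.0 and 86.2 CPM in the Adamts18-/- glands. The glands of mouse 1 were nearly equal, and the fitted value was -0.36 on the log2 scale (standard error 0.17, unadjusted p = 0.0920), within the spread between mice.

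Epcam, Cd24a and Muc1 did not differ between genotypes beyond the spread between mice, and for each the sign depended on the mouse. Epcam was at 117, 160 and 180 CPM in the WT glands and at 142, 83.4 and 128 CPM in the Adamts18-/- glands of mice 1, 2 and 3, a log2 fold change of -0.38 (standard error 0.24, unadjusted p = 0.184). The Adamts18-/- gland was the higher one in mouse 1 and the lower one in mice 2 and 3, so the groups overlapped. Cd24a was at 175, 186 and 229 CPM in the WT glands and at 205, 128 and 245 CPM in the Adamts18-/- glands, a log2 fold change of -0.069 (standard error 0.17, unadjusted p = 0.705). It was higher in the Adamts18-/- gland of mice 1 and 3 and lower in that of mouse 2, and its averages were 197 ± 28.6 and 193 ± 59.3 CPM (SD, n = 3 each). Muc1 was at 21.2, 35.8 and 19.2 CPM in the WT glands and at 26.3, 16.8 and 12.9 CPM in the Adamts18-/- glands, a log2 fold change of -0.45 (standard error 0.28, unadjusted p = 0.172, edgeR's quasi-likelihood test). Its difference ran from 0.31 in mouse 1 to -1.09 in mouse 2, the widest span among the 10 genes.

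**Figure D3:**
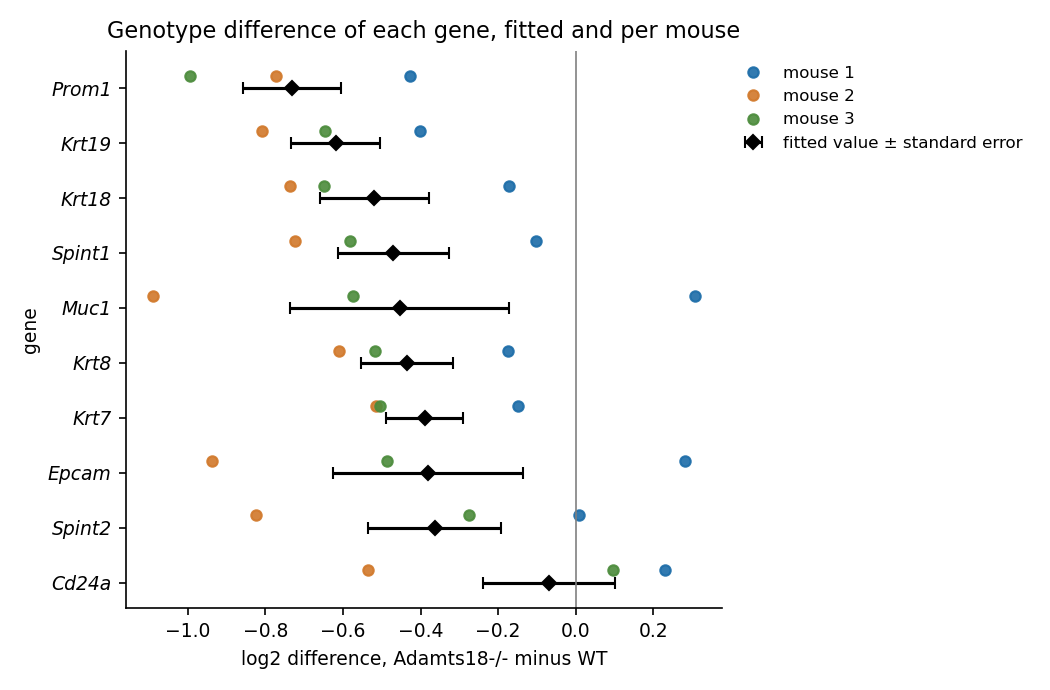
Log2 difference between Adamts18-/- and WT glands for each of the 10 genes, with the fitted value and its standard error in black and the value of each mouse as a coloured point. Prom1 (-0.73) and Krt19 (-0.62) have the lowest fitted values, and the point of mouse 1 lies to the right of the other mice for all 10 genes, up to 0.31 for Muc1.

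Levels of different genes were compared per kilobase of annotated exon. On this scale the order was the same in both genotypes: Krt19, Krt18, Krt8, Cd24a, Epcam, Spint2, Krt7, Prom1, Spint1 and Muc1. In WT glands Krt19 stood at 281 ± 35.8, Krt18 at 247 ± 40.0 and Krt8 at 169 ± 31.9 CPM per kilobase, and Muc1 at the end of the order at 11.3 ± 4.05 (SD, n = 3 each). In Adamts18-/- glands Krt19 was at 182 ± 7.97 and Krt18 at 174 ± 34.7 CPM per kilobase. The neighbours Krt19 and Krt18, Epcam and Spint2, and Prom1, Spint1 and Muc1 lay within 1 SD of each other in at least one genotype, so their order is not resolved there. The type I keratins Krt18 and Krt19 together exceeded the type II keratins Krt7 and Krt8 by 3.01, 2.63 and 2.55 times per kilobase in WT glands of mice 1, 2 and 3. The same ratio was 2.78, 2.32 and 2.33 in the Adamts18-/- glands of the same mice, lower in each mouse.

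The host mouse accounted for a different share of the variance in each gene. Over all genes tested, 67.1% of the variance in log2 CPM went with the mouse, 13.2% with the genotype and 19.7% with neither. For Krt19 these shares were 5.96%, 87.6% and 6.39%. Krt8, Krt18 and Spint1 had between 56.6% and 58.8% with the genotype. Krt7, Prom1 and Cd24a had most of theirs with the mouse (60.9%, 67.0% and 68.6%), and the remainder was 6.30% for Krt7, 3.03% for Prom1 and 30.0% for Cd24a. For Epcam the remainder was the largest share, at 50.3%. In the test of the mouse terms, 0 of the 10 genes had an adjusted p under 0.05 with edgeR, against 0.628% of all genes tested, and 2, Krt7 (unadjusted p = 0.00979) and Prom1 (unadjusted p = 0.00146), had an unadjusted p under 0.05, against 27.2% of all genes.

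Over the 6 libraries most of the 10 genes varied together. As a description over 6 libraries that share hosts and genotypes, the highest Pearson correlations of log2 CPM were 0.951 between Krt8 and Spint1, 0.946 between Krt18 and Spint1, 0.933 between Krt7 and Spint2, 0.926 between Krt19 and Krt8, and 0.919 between Epcam and Spint1. Prom1 was closest to Krt18 (0.843) and Cd24a to Spint2 (0.828). Muc1 stood apart, with 0.514 to its nearest gene, Krt19. The mean of the 10 genes was highest in the WT gland of mouse 3 and lowest in the Adamts18-/- gland of mouse 2. Among 10704 other genes with a mean of at least 10 CPM, those closest to this common profile were Pfkfb2 (0.990), an enzyme that sets the level of an activator of glycolysis, the endocytic adaptor Epn3 (0.987), the glycolytic enzyme Aldoc (0.987), Ccdc120 (0.979) and Sipa1l3 (0.976). None of these 5 passed the thresholds for genotype. A search of 10704 genes over 6 libraries yields some high correlations by chance, and no test was made of these values. The level of Pfkfb2 differed by only 1.18 times between its lowest and highest library.

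The study divided RT-PCR levels of milk protein genes by those of Krt18, as an epithelial marker, in grafts of pregnant hosts. Other transcripts were divided by other genes there, such as Hprt. Here the other 9 genes were also given as a ratio to Krt18 counts in the same gland, which is a different measure. Krt18 itself was among the genes that fell, and the ratios differed less between genotypes than the levels did: the median over the 9 genes of the mean log2 ratio, Adamts18-/- minus WT, was 0.085. The ratio of Cd24a to Krt18 was 0.541, 0.578 and 0.543 in WT glands of mice 1, 2 and 3, as against 0.715, 0.664 and 0.909 in the Adamts18-/- glands of the same mice. The WT ratios lay close together and every Adamts18-/- ratio was above them, a mean log2 difference of 0.45 ± 0.27 (SD, n = 3 mice). The ratio of Prom1 to Krt18 went the other way, at 0.292, 0.136 and 0.223 in WT and 0.244, 0.133 and 0.175 in Adamts18-/- glands, a mean log2 difference of -0.21 ± 0.16 (SD, n = 3 mice). Prom1 was thus lower per Krt18 in each mouse, though by as little as -0.039 in mouse 2. Spint1 had nearly the same ratio in both genotypes, with log2 differences of 0.069, 0.012 and 0.066. Krt7 was higher per Krt18 in each mouse as well (mean 0.13). With 3 mice an exact sign-flip test cannot go below p = 0.25, the value that these 4 genes reached, so none of the ratios could pass.

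**Figure D4:**
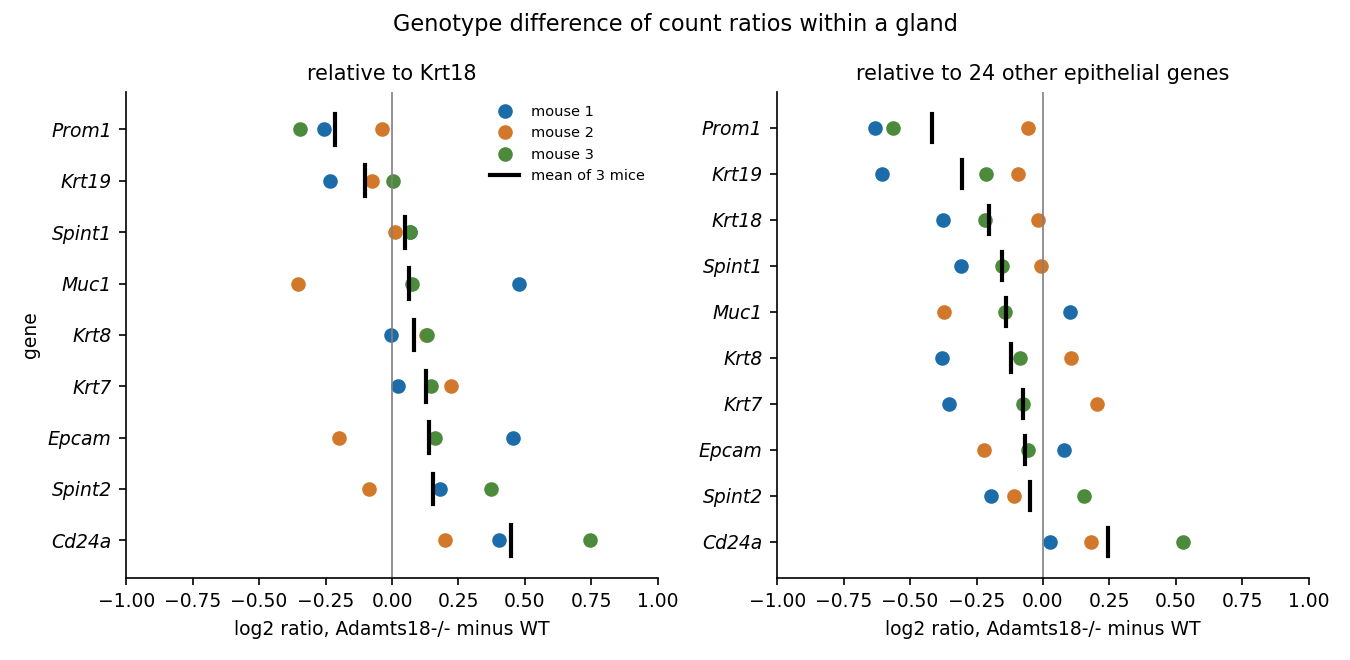
Log2 difference between Adamts18-/- and WT glands of one mouse in the ratio of each gene to Krt18 counts (left) and to the summed counts of 24 other epithelial genes (right), with a point per mouse and a bar for the mean of 3 mice. Cd24a lies above 0 and Prom1 below 0 in all 3 mice on both sides.

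The 10 genes were next set beside 24 other genes of epithelial junctions, polarity, splicing and transcription, a list also chosen when earlier results were known and led by Cdh1, the epithelial cadherin. Of these 24 genes 1 fell past the thresholds, the tight junction gene Ocln (log2 fold change -0.48), and 0 rose, but all 24 fitted values were below 0, with a median of -0.33. This count depended on the mice, as it did for the 10 genes. Without mouse 1, 19 of the 24 fell (median -0.59), whereas 0 fell without mouse 2 and 0 without mouse 3. Their summed level was 657, 876 and 1072 CPM in WT glands of mice 1, 2 and 3 and 757, 533 and 796 CPM in the Adamts18-/- glands. It was higher in the Adamts18-/- gland of mouse 1 and lower in the others. Relative to this sum Krt18 (mean log2 difference -0.20), Krt19 (-0.31), Spint1 (-0.16) and Prom1 (-0.42) were lower in all 3 mice, and Cd24a (0.24) was higher in all 3. Some of these values were small: in mouse 2 the lower ones ran from -0.093 (Krt19) to -0.0078 (Spint1), and Cd24a was at 0.025 in mouse 1. With 3 mice the exact sign-flip test cannot go below p = 0.25, so none of these ratios could pass. When the libraries were scaled to these 24 genes, the median of all genes moved to 0.32, the share of lower genes among the calls went from 61.1% to 3.81%, and 0 of the 10 genes passed the thresholds. The median of the 10 genes was then -0.13, against 0.32 for all genes. Krt19 had a log2 fold change of -0.30 (unadjusted p = 0.482) and Prom1 of -0.42 (unadjusted p = 0.290) on this scale, where the standard errors were 0.43 and 0.40.

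Genes that work with the keratins and surface proteins gave mixed counts. Among 12 other keratins tested, 2 fell, the basal keratins Krt14 (log2 fold change -0.56) and Krt17 (-0.61), and 1 rose, Krt6a (1.49), at 0.0860 to 1.01 CPM, and the median was -0.15. Krt5, the partner of Krt14 and the most abundant of these, had a log2 fold change of -0.54 (standard error 0.23, unadjusted p = 0.0711). The counts of the 4 luminal keratins together were 8.74, 4.68 and 7.95 times those of Krt5 and Krt14 in WT glands of mice 1, 2 and 3 and 6.94, 4.92 and 10.1 times in the Adamts18-/- glands, with no common direction. Of 8 genes that anchor keratin filaments, 2 fell, the desmosomal Dsp (log2 fold change -0.43) and the envelope protein Evpl (-0.60), with a median of -0.32, while Plec, the most abundant, was at 0.047. Of 10 genes for the proteases that Spint1 and Spint2 inhibit and for their substrates and receptors, 1 fell, St14, which encodes matriptase (log2 fold change -0.43), and the most abundant, Tmprss2, was at -0.50 (unadjusted p = 0.0919). Of 6 other mucins tested, 1 fell, Muc16 (log2 fold change -0.88), at 0.215 to 2.74 CPM, and the most abundant, Muc15, was at -0.30 (unadjusted p = 0.411). The other members of these lists did not pass.

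Markers of the cell classes within the epithelium were counted in the same way. Of 8 hormone-sensing luminal markers, 4 fell: Prlr, the prolactin receptor and the most abundant (log2 fold change -0.59), the transcription factor Foxa1 (-0.46), the transcriptional coactivator Cited1 (-1.06) and the ligand Wnt4 (-0.37). The median of these 8 was -0.32, and 7 of the 8 fitted values were below 0, that of Esr1 at -0.022. Areg was at 0.61 (unadjusted p = 0.125, edgeR's quasi-likelihood test), so the class did not move as a whole. Without mouse 1, 4 of the 8 fell and 1 rose. Of 9 secretory luminal markers tested, 1 fell, the transcription factor Elf5 (-0.57), Kit, the most abundant, was at -0.31, and the median was -0.50. Without mouse 1, 8 of these 9 fell, whereas 0 fell without mouse 2 and 0 without mouse 3. Of 9 myoepithelial markers, which the luminal layer lacks, 8 fell (Acta2, Myh11, Cnn1, Tagln, Mylk, Oxtr, Krt14 and Trp63), with fitted values from -0.63 to -0.34 and a median of -0.45, close to that of the 10 luminal and surface genes. Without the mouse as a block, 0 of these 9 passed. The libraries also held stromal transcripts, and which cells gave the transcripts of these markers was not tested. Relative to the summed counts of the myoepithelial markers, a ratio added after the data were seen, the median over the 10 genes of the mean log2 difference was 0.0037, and Krt19 (-0.17) and Prom1 (-0.29) were lower in all 3 mice.

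**Figure D5:**
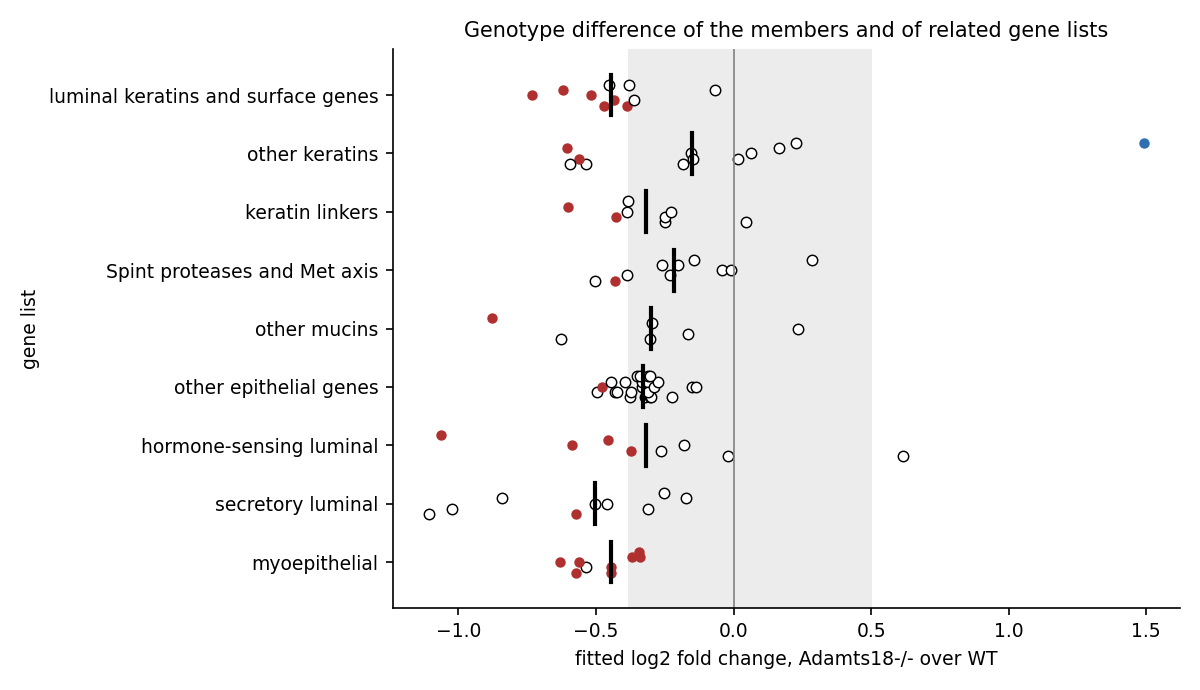
Fitted log2 fold change, Adamts18-/- over WT, of the 10 luminal keratins and surface genes (top) and of 8 related lists, with red points for genes that fell, blue for those that rose and open points for those that did not pass, a black bar at the median of each list and a grey band from the 5th to the 95th percentile of all genes tested (-0.38 to 0.50). The median of the 10 genes (-0.44) and that of the myoepithelial markers (-0.45) lie just outside the band, with the secretory luminal markers (-0.50).

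Other cell types also differed between the glands. Skeletal muscle markers, led by Myh4, summed to 279, 814 and 2677 CPM in WT glands of mice 1, 2 and 3 and to 10511, 10364 and 1799 CPM in the contralateral Adamts18-/- glands. They were far higher in the Adamts18-/- gland of mice 1 and 2 and lower in that of mouse 3, and 0 of the 8 markers passed the thresholds with edgeR (unadjusted p from 0.0831 to 0.308). This count depended on the setting: 7 of the 8 were called higher with DESeq2, 5 without the mouse as a block, and all 8 without mouse 3 or with libraries scaled to the 24 epithelial genes. B cell markers, led by Cd79a, summed to 126 CPM in the WT and 661 CPM in the Adamts18-/- gland of mouse 3, and to between 8.96 and 15.6 CPM in the other glands. T cell markers, led by Lck, were likewise highest in mouse 3, at 163 and 452 CPM. Of 6 markers each of adipocytes, fibroblasts, macrophages, endothelium (led by Pecam1), B cells and T cells, and of 5 erythroid markers (led by Hbb-b1), 0 passed the thresholds and 0 had an unadjusted p under 0.05 with edgeR. Under other settings limma-voom called 3 B cell markers higher, scaling to the 24 epithelial genes 1 B cell marker higher and DESeq2 1 fibroblast marker higher. Without mouse 2, 1 adipocyte and 1 endothelial marker were called lower. Without mouse 3, 1 B cell and 1 T cell marker were called lower. In the main fit the medians of these lists ran from -0.17 for endothelium to 0.57 for B cells. No defining marker of these types was at 0 in all libraries. Krt19 was lower in the Adamts18-/- gland by 0.40, 0.81 and 0.64 on the log2 scale in mice 1, 2 and 3. Over the luminal keratins and surface genes the median log2 difference was -0.12 in mouse 1 and -0.75 in mouse 2, with muscle markers higher. It was -0.55 in mouse 3, with muscle markers lower and lymphocyte markers higher. The part of these cells in the result was not tested.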

How the data were processed

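The deposited table holds unnormalized read counts for each gene symbol in 6 libraries of single-end 85-base reads, as the authors' counting gave them. The submitters' processing notes name bcl2fastq 2.18, TopHat2 2.0.11, featureCounts 1.6.2, edgeR and the build mm9, with no role or order. The annotation, strand and treatment of multiply mapped reads are not given in the sources used here. Total counts ran from 53875123 to 71595924. Groups, mouse numbers and sides came from the sample labels, and 0 columns belonged to other samples.

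Tests on these counts used edgeR 4.0.16 in R 4.3.3 (filterByExpr, TMM scaling, quasi-likelihood test), with the host mouse as a block and genotype as the tested term, as the study removed mouse effects before comparing genotypes. Called genes had a fold change under 0.8 or over 1.25 and an unadjusted p under 0.05, and Benjamini-Hochberg adjustment covered all 17345 genes tested. Log2 CPM used a prior count of 2. The pairing comes from the contralateral glands of 3 hosts. The deviations of the glands of mice 1, 2 and 3 from their group means correlated across genes at 0.512, 0.505 and 0.639. The scripts were tested on simulated data. Alternatives were other scalings, no filter or at least 10 counts in each library, DESeq2 1.42.0, limma-voom 3.58.1, no block, and each mouse left out. Exon lengths, overlaps and copies (BLAST, at least 95% identity over 85 bases) came from GENCODE M21 for GRCm38, and promoters from RefSeq for GRCm38.p6.

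The 10 genes, the 16 other lists and the tests were chosen with earlier results of these data known. The genes named are the 10 members, Adamts18, every gene of another list past the thresholds, the most abundant gene of each list, the 5 genes most alike the 10 over the libraries and, for each of the 10, the one of them nearest to it. Krt5 was also used in a ratio, and Gm16401 and Krt8-ps were named after their overlap or identity was seen. Esr1 and Areg were named after their values were seen.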

Additional observations from a re-analysis of the deposited data

How the results depend on the processing

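Each of the 10 genes had at least 791 counts in a library, and the comparison rests on 3 pairs of glands. Scaling to the other 24 epithelial genes took the genes called lower from 319 to 28 and those called higher from 203 to 707, the lower calls among the 10 genes from 6 to 0, the genes of the other lists called lower from 19 to 0, and the median of the 10 from -0.44 to -0.13. Without the replicate block 125 genes were lower and 3 list genes, and Krt7 (unadjusted p = 0.139) and Prom1 (0.171) lost their calls, while no other member's call changed. Without a low count filter 352 genes were higher, with DESeq2 340 and with limma-voom 345. Of the 10 genes, 1 differed between hosts by adjusted p without the filter and 2 did with DESeq2, against 0 in the main fit. The share of all genes that differed between hosts was counted only in the main fit (0.628%). Such counts under other settings therefore have no background. Leaving out each mouse in turn gave 214 to 481 lower and 182 to 581 higher genes, 2 to 9 lower calls among the 10 genes, 0 to 1 of them differing between hosts, 12 to 47 lower genes in the other lists, a median of the 10 from -0.67 to -0.33 and a median ratio to Krt18 from 0.039 to 0.084. Cd24a turned positive with epithelial scaling (0.24), and with a mouse left out it ran from -0.22 to 0.16. The median ratio to Krt18 of 0.085 became -0.019 relative to Krt8 and -0.13 relative to the 24 genes. The causes of these moves were not tested.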
